A study of Homo sapiens with 6 samples.

Results

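The 10 genes described here encode heat shock proteins of the cytosol and of the mitochondrion: HSPA1A, HSPA1B, HSPA8, HSPH1, HSP90AA1, HSP90AB1, DNAJB1, HSPB1, HSPD1 and HSPE1. They were taken by name from the 32029 genes in the deposited count tables, each name matched exactly 1 gene, and all 10 were among the 14996 genes that passed the filter on low counts. SW480 is an established human colorectal cancer cell line, recorded as wild type. The cultures were transfected for 48 h with a control siRNA, named siNC in the labels and siControl in the record of the design, or with siRNA against ZEB1 (siZEB1), a zinc finger transcription factor known mainly as a repressor. Each group held 3 cultures of the same line, and the study calls them biological replicates, so the p-values below cover the spread between cultures of 1 line given 1 knockdown. The number and sequence of the siRNAs behind siZEB1 were not used here, so an effect of the siRNA itself cannot be told apart from an effect of losing ZEB1.

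Heat shock proteins are chaperones, which bind unfolded or partly folded proteins and keep them from aggregating. HSP70 proteins bind short exposed stretches in cycles of ATP hydrolysis, J-domain proteins such as DNAJB1 bring them their clients and start the hydrolysis, and nucleotide exchange factors such as HSPH1 release the client again. HSP90 proteins act later, on clients such as kinases and steroid receptors, while HSPB1 holds unfolded proteins without using ATP, and HSPD1 with its lid HSPE1 encloses proteins inside the mitochondrial matrix. Some of these genes are expressed in every cell, others rise steeply when proteins are damaged, and heat shock factor 1 (HSF1) drives that rise by binding inverted repeats of the bases GAA in their promoters. Cancer cells are known to lean on several of these chaperones.

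The deposited counts per culture summed to between 19040636 and 22357633. Levels are given as CPM, the count of a gene scaled to a common library total, after TMM scaling, which corrects each library for its depth and composition, and differences come from edgeR's quasi-likelihood test with Benjamini-Hochberg adjustment over all 14996 genes, a gene being called at an adjusted p under 0.05. ZEB1 itself fell by 2.85 on the log2 scale, from 54.2 ± 6.24 to 7.51 ± 0.843 CPM (SD, n = 3 per group). Of 8 markers of the colorectal epithelium, 7 were above 1 CPM in every culture, and CDX1 was not listed; their summed level, carried mostly by KRT8 and KRT18, ranged from 4816 to 5440 CPM in siControl and from 5332 to 6007 CPM in siZEB1. Single markers moved apart within that sum: the mean level of EPCAM was 54.7 CPM in siControl and 454 in siZEB1, that of KRT19 was 72.3 and 223, that of VIL1 was 4.08 and 20.7, and that of CDX2 was 103 and 41.8. The part of this shift in the results below was not tested. Of 8 markers of leukocytes, endothelium and fibroblasts, PTPRC and DCN were not listed, and 2 were above 1 CPM in every culture, PECAM1 and COL1A1. The list summed to 11.8 to 13.1 CPM in siControl and 9.40 to 12.0 CPM in siZEB1. Most of that sum was COL1A1, with a mean of 10.2 CPM in siControl and 8.70 in siZEB1, in siControl above VIL1.

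Both cytosolic HSP90 genes and both mitochondrial chaperonin genes were called higher in siZEB1. The rise was 1.17-fold for HSP90AA1, 1.20-fold for HSP90AB1, 1.35-fold for HSPD1 and 1.42-fold for HSPE1. Of these, HSPE1 had only 119 to 222 counts per culture, and its groups overlapped. The call of HSPE1 did not hold once siControl 1, siControl 2 or siZEB1 2 was removed. None of the 5 genes of the cytosolic HSP70 machine was called, nor was the small heat shock protein HSPB1; a difference between the roles was not tested. In all, 4 of the 10 genes were called higher, against 19.0% of all genes tested, and 0 were called lower, against 21.2%. DESeq2 also called 0 lower, and 0 were lower at an unadjusted p under 0.05. The share of all genes called in either direction was 40.2%, so 4 of 10 stood near the background of this knockdown. The log2 fold changes of the 10 genes ran from 0.0047 to 0.51 with a median of 0.13, while the median over all genes tested was -0.0055 and the median absolute change was 0.25. The groups did not overlap for 4 of the 10 genes, against 49.5% of all genes. With a fold above 1.5 and an unadjusted p under 0.05, the kind of rule the study names, 0 of the 10 were called, against 16.6% of all genes.

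**Figure D1:**
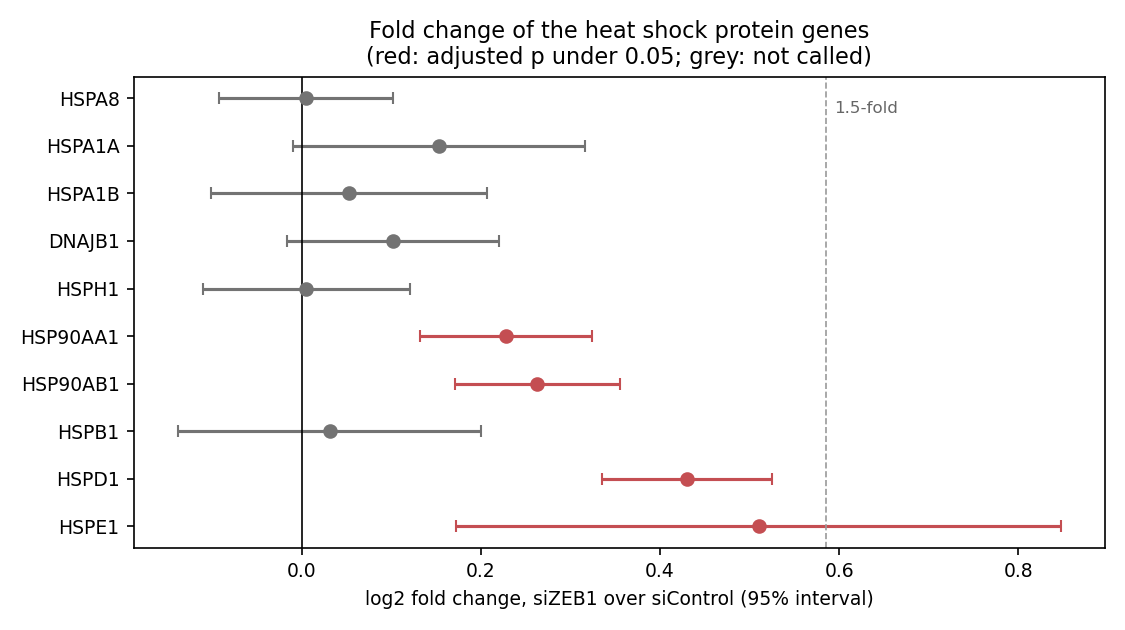
Log2 fold change of each heat shock protein gene, siZEB1 over siControl, with its 95% confidence interval from edgeR's quasi-likelihood fit (3 cultures per group); red points have an adjusted p under 0.05, grey points do not, and the dashed line marks a 1.5-fold rise. The intervals of HSP90AA1, HSP90AB1, HSPD1 and HSPE1 lie above 0, and those of the other 6 genes include 0.

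In bulk RNA a higher count can come from more RNA per cell or from more cells that express the gene, and these cannot be told apart here. The 10 genes together took 1.24% to 1.28% of all counts in the siControl cultures and 1.42% to 1.44% in the siZEB1 cultures. These ranges did not overlap, with an exact permutation p of 0.1, the smallest that 3 cultures against 3 allow. The share weighs each gene by its counts, and 6 of the 10 genes were not called. Mean levels rose from 3410 to 4092 CPM for HSP90AB1, from 3005 to 3519 for HSP90AA1 and from 1642 to 2212 for HSPD1. That of HSPA8 was 3241 CPM in siControl and 3252 in siZEB1.

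**Figure D2:**
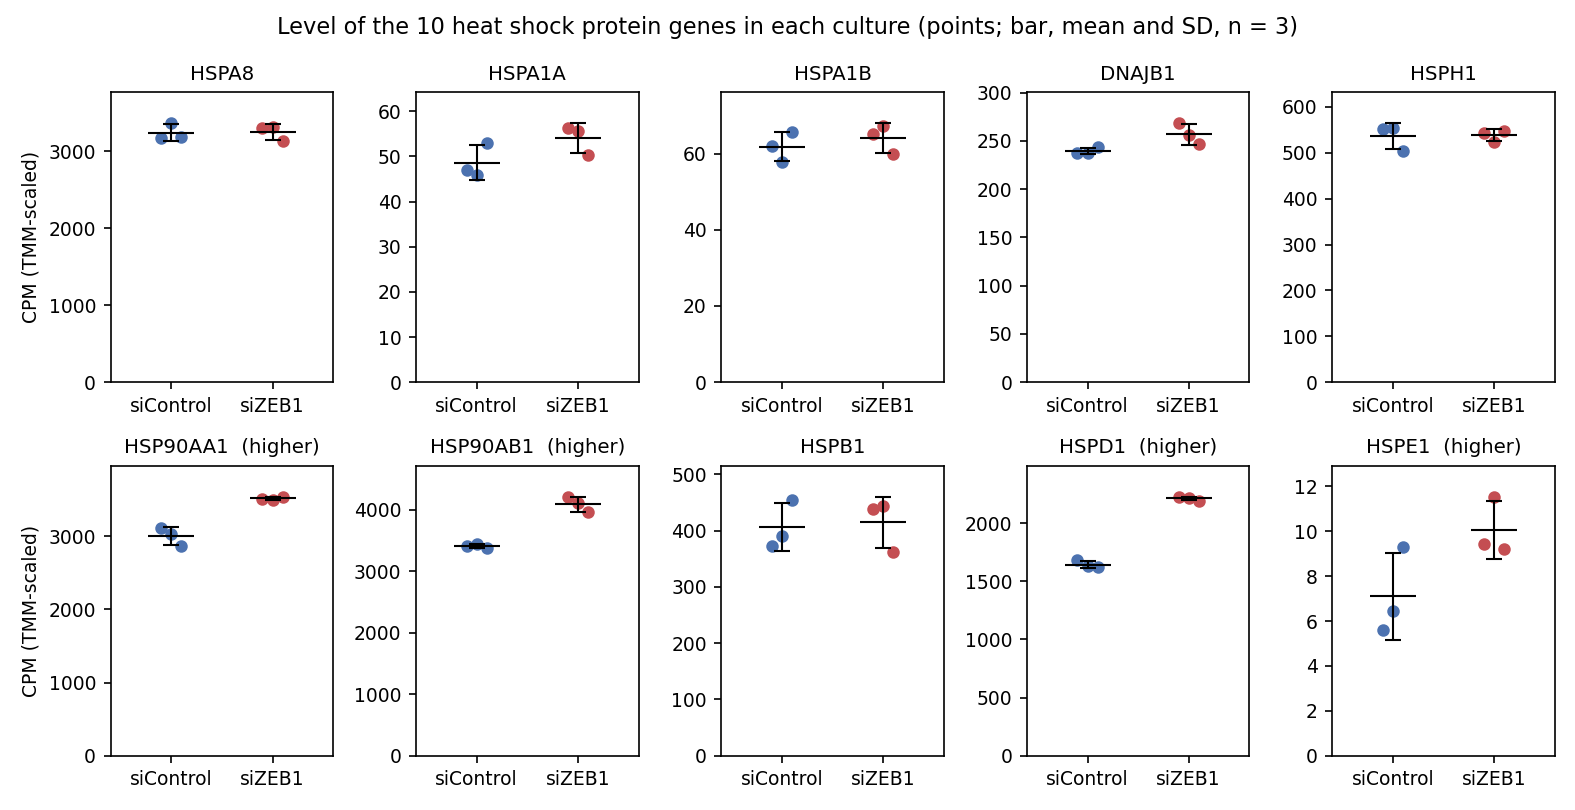
Level of each of the 10 genes in every culture in TMM-scaled CPM, on linear axes that start at 0; points are cultures, and the bars give the mean and SD of 3 cultures. The siZEB1 points lie above every siControl point for DNAJB1, HSP90AA1, HSP90AB1 and HSPD1, and the points of the other 6 genes overlap.

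Levels of different genes were compared per kilobase of annotated exon. In siControl the order ran from HSP90AB1 at 1144 ± 9.45 CPM per kb through HSPA8 at 668 ± 22.5, HSP90AA1 at 573 ± 23.3, HSPD1 at 387 ± 7.59 and HSPB1 at 249 ± 25.9, to DNAJB1 at 65.2 ± 0.951, HSPH1 at 63.9 ± 3.38, HSPA1B at 24.5 ± 1.54, HSPA1A at 19.6 ± 1.53 and HSPE1 at 3.59 ± 0.979 (SD, n = 3). The inducible HSP90AA1 stood near the constitutive HSPA8, while HSPA1A and HSPA1B, whose transcripts are mostly alike, stood low. Reads of HSPA1A, HSPA1B and HSPE1 often match or touch another annotated gene, and the counting may have dropped them. The low places of these genes may therefore understate their RNA, and the order was not used to set inducible against constitutive genes. DNAJB1 and HSPH1 overlapped between cultures of siControl. The order was the same in siZEB1, where HSPA8 at 671 ± 20.5 and HSP90AA1 at 670 ± 4.12 CPM per kb did not differ beyond their spread. The scale depends on the length used: over the longest coding transcript, HSPA8 at 1316 stood above HSP90AB1 at 1275 CPM per kb in siControl.

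**Figure D3:**
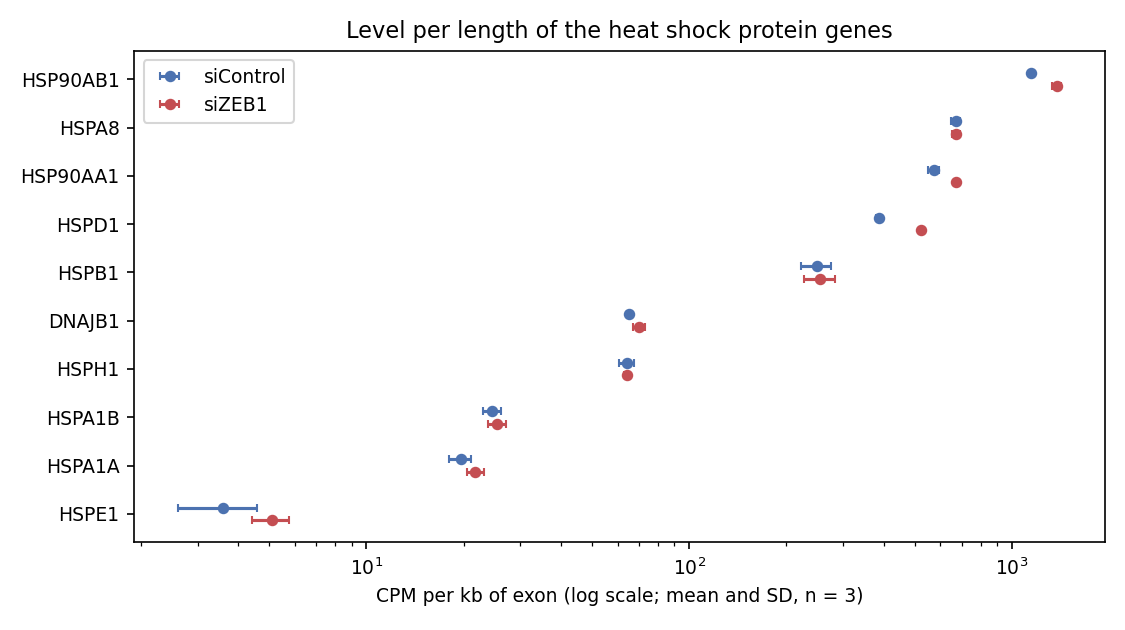
Level of each gene in CPM per kb of exon on a log axis; points are means of 3 cultures and bars their SD, for siControl in blue and siZEB1 in red. HSP90AB1 is at the top with 1144 and 1373 CPM per kb, and HSPE1 at the bottom with 3.59 and 5.09. The values of HSPA1A, HSPA1B and HSPE1 may lack reads that match or touch another gene.

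The promoter windows of the genes were read to show where the heat shock factors could meet them. RefSeq windows of 300 bases (GRCh38.p14), from 250 bases before to 50 after each listed start, matched all 10 genes, with 16 windows since several genes have more than 1 start. Each was searched for pairs of inverted GAA repeats, GAANNTTC or TTCNNGAA, which read the same on both strands, and for a run of 3 repeats, which is made of overlapping pairs. A pair was found in 13.5% of all 35116 windows of this length and in 16.2% of genes, and a run of 3 in 0.490% of windows and 0.608% of genes. Of the 10 heat shock protein genes 8 held a pair, HSPE1 and HSPH1 being without one in these windows, and 4 held a run of 3, namely HSPA8, HSP90AA1, HSP90AB1 and HSPD1. A match is only a description of the letters; no binding was measured here.

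**Figure D4:**
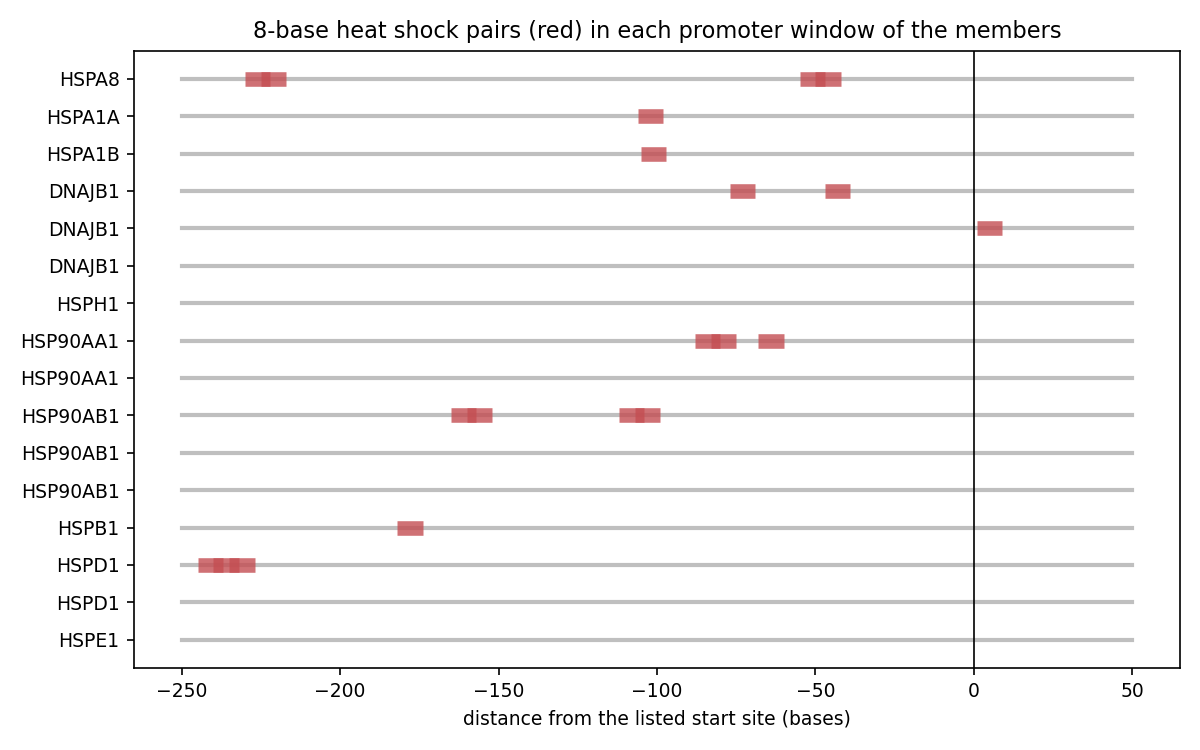
Position of each pair of inverted GAA repeats (red, 8 bases) in the 16 promoter windows of the genes, in bases from the listed start site; each grey line is 1 window from 250 bases before to 50 after the start. HSPA8, HSP90AA1, HSP90AB1 and HSPD1 have overlapping pairs, and the windows of HSPH1 and HSPE1 have none.

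HSPA8 (ENSG00000109971, chr11:123057489-123063230, minus strand, GRCh38) encodes the constitutive cytosolic HSP70. Its level was 3174, 3367 and 3182 CPM in the siControl cultures and 3303, 3315 and 3137 CPM in the siZEB1 cultures. The groups overlapped and their means, 3241 ± 109 and 3252 ± 99.6 CPM, lay within the spread of either group. The log2 fold change was 0.0047 with a 95% interval from -0.093 to 0.10 (adjusted p = 0.947), and it turned to -0.0038 when counts were scaled by the library total alone. HSPA8 shows in its promoter window what a gene that was not called can hold: capitals mark the pairs, which join into 2 runs of 3 repeats. The window, chr11:123062087-123062386 on the minus strand, lies in annotated exons of the gene.
HSPA8: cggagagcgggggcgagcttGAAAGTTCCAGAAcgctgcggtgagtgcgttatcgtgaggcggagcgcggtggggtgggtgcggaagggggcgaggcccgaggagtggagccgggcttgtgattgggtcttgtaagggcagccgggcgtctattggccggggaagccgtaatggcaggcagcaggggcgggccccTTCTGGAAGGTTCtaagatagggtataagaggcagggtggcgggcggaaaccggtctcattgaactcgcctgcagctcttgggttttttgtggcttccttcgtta

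HSPA1A (ENSG00000204389, chr6:31815464-31817946, plus strand) and HSPA1B (ENSG00000204388, chr6:31827735-31830255, plus strand) encode nearly the same stress-inducible HSP70. HSPA1A stood at 47.0, 45.9 and 53.0 CPM in siControl and at 56.3, 55.6 and 50.2 CPM in siZEB1. The highest siControl culture lay above the lowest siZEB1 culture, and the log2 fold change of 0.15 (SE 0.077, 95% interval -0.0095 to 0.32) had an adjusted p of 0.125. HSPA1B stood at 61.9, 57.9 and 65.7 CPM in siControl and at 65.2, 67.3 and 59.8 CPM in siZEB1, with a log2 fold change of 0.053 (SE 0.073, 95% interval -0.10 to 0.21, adjusted p = 0.597). Neither gene was called, although without siControl 3, its highest control culture, HSPA1A was called higher, by 0.22 on the log2 scale with an adjusted p of 0.0256.

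Reads of the inducible pair are hard to assign. Of all 75-base stretches of the longest coding transcript, 71.2% of those of HSPA1A and 73.2% of those of HSPA1B occur in another annotated gene, nearly always in the other member of the pair. For HSPA1B, 36.5% of the bases of that transcript also lie in exons of AL671762.1 on the same strand, and 40.6% of its stretches touch them. With their counts added into 1 feature, the pair had 2316, 2324 and 2287 counts in siControl and 2293, 2365 and 2105 in siZEB1. Adding counts does not bring back reads that the counting may have dropped, and its settings are not given in the sources used here. The summed level of 110 ± 7.55 CPM in siControl and 118 ± 7.11 CPM in siZEB1 differed by 0.098 on the log2 scale, siZEB1 over siControl (SE 0.070, adjusted p = 0.284). Their promoter windows, chr6:31815293-31815592 and chr6:31827488-31827787, were identical at 277 of 301 aligned positions (92.0%). The same pair of repeats, in capitals, lies 106 bases before the listed start in HSPA1A and 105 in HSPA1B, outside the annotated gene in both.
HSPA1A: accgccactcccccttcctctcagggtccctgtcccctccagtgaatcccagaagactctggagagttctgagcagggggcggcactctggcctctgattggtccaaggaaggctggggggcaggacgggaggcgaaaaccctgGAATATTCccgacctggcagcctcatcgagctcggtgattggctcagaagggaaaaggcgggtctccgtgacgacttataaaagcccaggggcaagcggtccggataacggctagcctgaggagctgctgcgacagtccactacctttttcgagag
HSPA1B: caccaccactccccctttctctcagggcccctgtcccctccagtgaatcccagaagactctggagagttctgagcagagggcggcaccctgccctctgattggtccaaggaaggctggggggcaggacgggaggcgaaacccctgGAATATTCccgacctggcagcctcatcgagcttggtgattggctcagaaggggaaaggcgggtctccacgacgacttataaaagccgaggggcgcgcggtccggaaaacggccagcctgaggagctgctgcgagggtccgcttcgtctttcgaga

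DNAJB1 (ENSG00000132002, chr19:14514770-14529770, minus strand), the J-domain partner of HSP70 in the stress response, stood at 237, 237 and 243 CPM in siControl and at 268, 256 and 247 CPM in siZEB1. Every siZEB1 culture lay above every siControl culture, but the log2 fold change of 0.10 (SE 0.056, 95% interval -0.016 to 0.22) was not called (adjusted p = 0.159). HSPH1 (ENSG00000120694, chr13:31134974-31162388, minus strand), the HSP110 protein that releases ADP from HSP70, stood at 551, 555 and 504 CPM in siControl and at 544, 523 and 548 CPM in siZEB1. Its groups overlapped, and the log2 fold change of 0.0051 (95% interval -0.11 to 0.12, adjusted p = 0.950) turned to -0.0030 with the library total as the only scaling. For these 5 HSP70 machine genes the upper ends of the intervals ran from 0.10 for HSPA8 to 0.32 for HSPA1A, so larger log2 rises lay outside the intervals.

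HSP90AA1 (ENSG00000080824, chr14:102080738-102139699, minus strand) encodes the inducible cytosolic HSP90. Its level was 3114, 3029 and 2873 CPM in the siControl cultures and 3515, 3499 and 3542 CPM in the siZEB1 cultures. No culture overlapped with the other group. The log2 fold change was 0.23 (SE 0.045, 95% interval 0.13 to 0.32, adjusted p = 0.000683), and the call held in each of 13 alternative fits. HSP90AB1 (ENSG00000096384, chr6:44246166-44253888, plus strand), the constitutive cytosolic HSP90, stood at 3404, 3441 and 3385 CPM in siControl and at 4201, 4114 and 3960 CPM in siZEB1. The groups were again apart, the log2 fold change was 0.26 (SE 0.044, 95% interval 0.17 to 0.36, adjusted p = 0.000129), and the call held in each of the 13 alternative fits. These fits are the other tools, scalings, filters, pseudogene handling, replicate block and left-out cultures named with the limits. The intervals of the inducible and the constitutive gene overlapped, and so did the ratio of their counts between the groups.

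The promoter windows of the HSP90 genes that hold repeats are printed because both genes rose. Capitals mark the pairs. In HSP90AA1 (chr14:102086995-102087294, minus strand) 3 pairs begin 88, 83 and 68 bases before the listed start, in annotated exon. In HSP90AB1 (chr6:44247693-44247992, plus strand) 4 pairs begin 165, 160, 112 and 107 bases before the start, in an annotated intron. Other windows of the same genes held no pair. In those other windows were the short motifs CAGGTG or CAGGTA, of the kind ZEB1 is known to bind. On either strand these occurred in 20.6% and 9.83% of all windows, and in 24.1% and 11.8% of all genes with windows. Of the 10 heat shock protein genes 2, HSP90AA1 and HSP90AB1, held either motif. The share of all genes with either motif was not computed, so this count has no matching background. The windows of the other genes, HSPD1 and HSPE1 among them, held neither. Binding by ZEB1 was not measured here, and a link between these motifs and the calls was not tested.
HSP90AA1: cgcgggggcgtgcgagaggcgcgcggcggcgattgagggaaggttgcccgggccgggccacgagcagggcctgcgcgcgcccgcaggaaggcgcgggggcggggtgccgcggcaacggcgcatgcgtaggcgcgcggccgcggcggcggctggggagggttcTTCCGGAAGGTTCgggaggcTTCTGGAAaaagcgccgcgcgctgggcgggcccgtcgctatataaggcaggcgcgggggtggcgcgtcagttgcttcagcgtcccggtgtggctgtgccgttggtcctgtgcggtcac
HSP90AB1: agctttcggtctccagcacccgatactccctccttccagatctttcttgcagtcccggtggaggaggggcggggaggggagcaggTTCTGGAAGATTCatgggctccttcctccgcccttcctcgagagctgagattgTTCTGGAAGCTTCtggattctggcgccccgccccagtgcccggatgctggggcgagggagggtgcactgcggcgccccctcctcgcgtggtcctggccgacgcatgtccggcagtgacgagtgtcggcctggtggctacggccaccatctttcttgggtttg

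HSPB1 (ENSG00000106211, chr7:76302544-76304295, plus strand), the small heat shock protein also called HSP27, stood at 373, 391 and 454 CPM in siControl and at 439, 443 and 362 CPM in siZEB1. Both groups ranged widely, with coefficients of variation of 10.4% and 11.0%, and they overlapped. The log2 fold change of 0.031 (SE 0.080, 95% interval -0.14 to 0.20, adjusted p = 0.788) took values from -0.027 to 0.12 as single cultures were left out. Its promoter window held 1 pair of repeats, 182 bases before the listed start.

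HSPD1 (ENSG00000144381, chr2:197486581-197516737, minus strand) encodes HSP60, the mitochondrial chaperonin. Its level was 1679, 1628 and 1619 CPM in the siControl cultures and 2224, 2217 and 2194 CPM in the siZEB1 cultures. The groups lay far apart relative to their spread, 1642 ± 32.2 against 2212 ± 15.9 CPM. The log2 fold change of 0.43 (SE 0.045, 95% interval 0.34 to 0.52, adjusted p = 9.13e-07) was called in each of the 13 alternative fits, with values from 0.42 to 0.44 as single cultures were left out. Of the 10 genes HSPD1 had the smallest p. Its interval lay wholly above those of HSPA8, HSPH1, HSPA1A, HSPA1B, DNAJB1, HSPB1 and HSP90AA1.

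HSPE1 (ENSG00000115541, chr2:197499994-197503457, plus strand), the cochaperonin that caps HSP60, lies head to head with HSPD1. It had 119, 144 and 179 counts in siControl and 178, 222 and 176 counts in siZEB1, or 5.60, 6.43 and 9.29 CPM against 9.43, 11.5 and 9.20 CPM. The siControl culture with the most counts reached the siZEB1 range, so the groups overlapped. The log2 fold change of 0.51 (SE 0.16, 95% interval 0.17 to 0.85) was called with an adjusted p of 0.0169. The call was lost without siControl 1 (adjusted p = 0.0807), without siControl 2 (0.0737) and without siZEB1 2 (0.0912), and the log2 fold change ranged from 0.36 to 0.74 as each of the 6 cultures was left out in turn.

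The low count of HSPE1 came with overlaps in the annotation. Of its longest coding transcript, 49.8% of bases lie in exons of HSPD1 on the other strand or of the readthrough gene HSPE1-MOB4 on the same strand, 62.4% of its 75-base stretches touch those exons, and 22.3% of the stretches also occur elsewhere among annotated genes. Whether the counting used strand, and how it treated reads with more than 1 match, is not given in the sources used here, so the part of this in the level or in the difference was not tested. HSPE1-MOB4 was not analysed here. The neighbour MOB4 went the other way, at -0.29 on the log2 scale (adjusted p = 0.0272) with overlapping groups, and was chosen after its values were seen.

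For HSPD1, the promoter window at chr2:197499791-197500090 (minus strand) lies in annotated exon and carries 3 overlapping pairs that begin 245, 240 and 235 bases before the listed start, printed in capitals. Its other window overlaps the window of HSPE1 by 204 bases, which shows how close the starts of the divergent genes are, and neither of these held a pair.
HSPD1: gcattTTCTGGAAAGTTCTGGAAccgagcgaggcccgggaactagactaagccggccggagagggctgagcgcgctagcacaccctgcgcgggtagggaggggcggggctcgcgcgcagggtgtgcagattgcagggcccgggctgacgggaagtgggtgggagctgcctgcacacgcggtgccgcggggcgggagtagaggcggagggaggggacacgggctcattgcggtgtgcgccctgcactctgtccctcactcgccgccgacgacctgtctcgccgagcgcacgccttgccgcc

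Reads from pseudogenes could add to these signals or be taken from them. The listed pseudogenes of HSPD1 held 1.07% to 1.27% as many counts as HSPD1; HSPD1P1 had a log2 fold change of 0.42 (adjusted p = 0.00118), close to its parent, and HSPD1P4 one of -0.12 (adjusted p = 0.678). For HSP90AB1, HSP90AB3P was called higher by 0.38 on the log2 scale (adjusted p = 0.0142), with 150 to 215 counts. HSP90AA2P had a log2 fold change of 0.19 (adjusted p = 0.217). HSPE1P2, with 29 to 59 counts, stood at 0.11 on the log2 scale (adjusted p = 0.775), while the pseudogenes of HSPE1 together held 18.0% to 33.7% as many counts as HSPE1. With pseudogene counts added to each parent, the same count of 4 of the 10 genes was called higher.

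Ratios of counts between genes of the same culture need no scaling and were used to set the genes against HSPA8, the constitutive HSP70. HSPD1 held 0.484 to 0.529 as many counts as HSPA8 in siControl and 0.669 to 0.699 in siZEB1. HSP90AB1 held 1.02 to 1.07 as many in siControl and 1.24 to 1.27 in siZEB1, and HSP90AA1 0.900 to 0.981 and 1.06 to 1.13. These ranges did not overlap. HSPD1 also rose against its mitochondrial partner HSPA9, from 1.89 to 1.95 times its count in siControl to 2.30 to 2.38 times in siZEB1. DNAJB1 held 0.0705 to 0.0765 of the counts of HSPA8 in siControl and 0.0771 to 0.0813 in siZEB1, also without overlap. HSPH1 against HSPA8 (exact permutation p = 1) and HSP90AB1 against HSP90AA1 (exact permutation p = 0.6) overlapped. The ratio of HSPA1B to HSPA1A was 1.24 to 1.32 in siControl and 1.16 to 1.21 in siZEB1. Each of the 6 ratios without overlap had a two-sided exact permutation p of 0.1, the smallest this design allows, and 0.133 after adjustment over the 8 ratios computed, so none could pass 0.05.

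The heat shock factors that control the inducible genes did not move as a group. HSF1, the main activator, stood at 80.9, 88.0 and 101.8 CPM in siControl and at 66.5, 66.2 and 63.2 CPM in siZEB1. It fell by 0.47 on the log2 scale (SE 0.080, adjusted p = 0.000165), without overlap. HSF2, which can pair with HSF1, was higher, from 31.9 ± 0.809 to 38.7 ± 2.05 CPM (log2 fold change 0.28, adjusted p = 0.0065), though not without siZEB1 1 (adjusted p = 0.0529). HSBP1, which binds HSF1 and restrains it, was also higher, with a log2 fold change of 0.22 (adjusted p = 0.00889), a call lost without siControl 2 (adjusted p = 0.0643), without siZEB1 2 (0.0654) and with a replicate block (0.0562). Of 15 other genes known to be induced through HSF1, 4 were higher and 1 was lower: CRYAB (log2 fold change 0.75, at 1.22 and 2.06 CPM), AHSA1 (0.67), DNAJA1 (0.32) and BAG3 (0.16) against HSPA4L (-0.39). The calls of CRYAB and BAG3 were lost in 4 and 7 of 12 alternative fits, that of CRYAB also by DESeq2 (adjusted p = 0.0558). The median log2 fold change of the 15 genes was 0.11, against -0.0055 over all genes, of which 19.0% were called higher and 21.2% lower.

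Among the other chaperones, listed by role, 79 of 87 genes were tested, and 19 were called higher and 13 lower. Cochaperones of HSP90 and HSP70 had 7 of 14 higher and 1 lower, with a median log2 fold change of 0.15, in a knockdown where 19.0% of all genes were higher and 21.2% lower. AHSA1, which stimulates the ATPase of HSP90, rose from 173 ± 4.65 to 276 ± 16.2 CPM (log2 fold change 0.67, adjusted p = 1.64e-07). ST13, which links HSP70 to HSP90, rose from 272 ± 12.5 to 398 ± 4.08 CPM (0.55, adjusted p = 5.84e-07), and UNC45A, a myosin chaperone that binds HSP90, from 41.6 ± 2.31 to 59.7 ± 1.40 CPM (0.52, adjusted p = 1.60e-05). The ubiquitin ligase STUB1, which marks HSP70 clients for the proteasome, fell by 0.42 on the log2 scale (adjusted p = 0.00166).

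Mitochondrial chaperones and proteases had 4 of 12 higher and 4 lower, beside 19.0% and 21.2% of all genes, and a median log2 fold change of 0.021. GRPEL2, an exchange factor of mitochondrial HSP70, rose from 37.2 ± 3.16 to 75.5 ± 3.29 CPM (log2 fold change 1.02, adjusted p = 1.83e-08). HSCB, a J-domain protein of iron-sulfur cluster assembly, rose by 0.67 (adjusted p = 0.0035), and the protease LONP1 by 0.55 (adjusted p = 1.69e-05). The protease HTRA2 fell by 0.69 on the log2 scale (adjusted p = 1.32e-05). The mitochondrial HSP90, TRAP1, which the naming rule did not reach, stood at -0.40 on the log2 scale (adjusted p = 9.14e-05) and so went against the cytosolic HSP90 genes. The mitochondrial HSP70, HSPA9, was higher by 0.14 (adjusted p = 0.0286), a call lost in 6 of 12 alternative fits.

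The remaining lists are to be read against the same 19.0% higher and 21.2% lower over all genes. J-domain proteins outside the 10 genes had 2 of 17 higher and 3 lower, with a median log2 fold change of 0.013. DNAJA2 (0.42) and DNAJA1 (0.32), cytosolic partners of HSP70, were higher, while DNAJC7 (-0.70), which binds both HSP70 and HSP90, and DNAJC2 (-0.35), which works at the ribosome, were lower. Exchange factors had 2 of 8 higher, GRPEL2 and BAG3, and 2 lower, HSPBP1 (-0.35) and BAG5 (-0.25); the call of BAG5 was lost without siControl 1 (adjusted p = 0.0540) and without siControl 2 (0.0508). Of 9 other HSP70 and HSP110 genes tested, HSPA9 was higher and HSPA4L lower. Of 9 other small heat shock proteins 3 were tested, and HSPB8 fell from 7.91 ± 1.15 to 4.80 ± 0.435 CPM (log2 fold change -0.72, adjusted p = 0.000621) while CRYAB was higher. The cytosolic chaperonin CCT had 1 of 8 subunits higher, CCT6A (0.18), and prefoldin 1 of 6, VBP1 (0.17). The other subunits were not called by edgeR. Log2 fold changes ran from -0.050 to 0.18 over the CCT subunits and from -0.16 to 0.18 over the prefoldin subunits. The medians were 0.075 and 0.031. The call of CCT6A was lost with a replicate block (adjusted p = 0.0527), and that of VBP1 in 6 of 12 alternative fits.

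**Figure D5:**
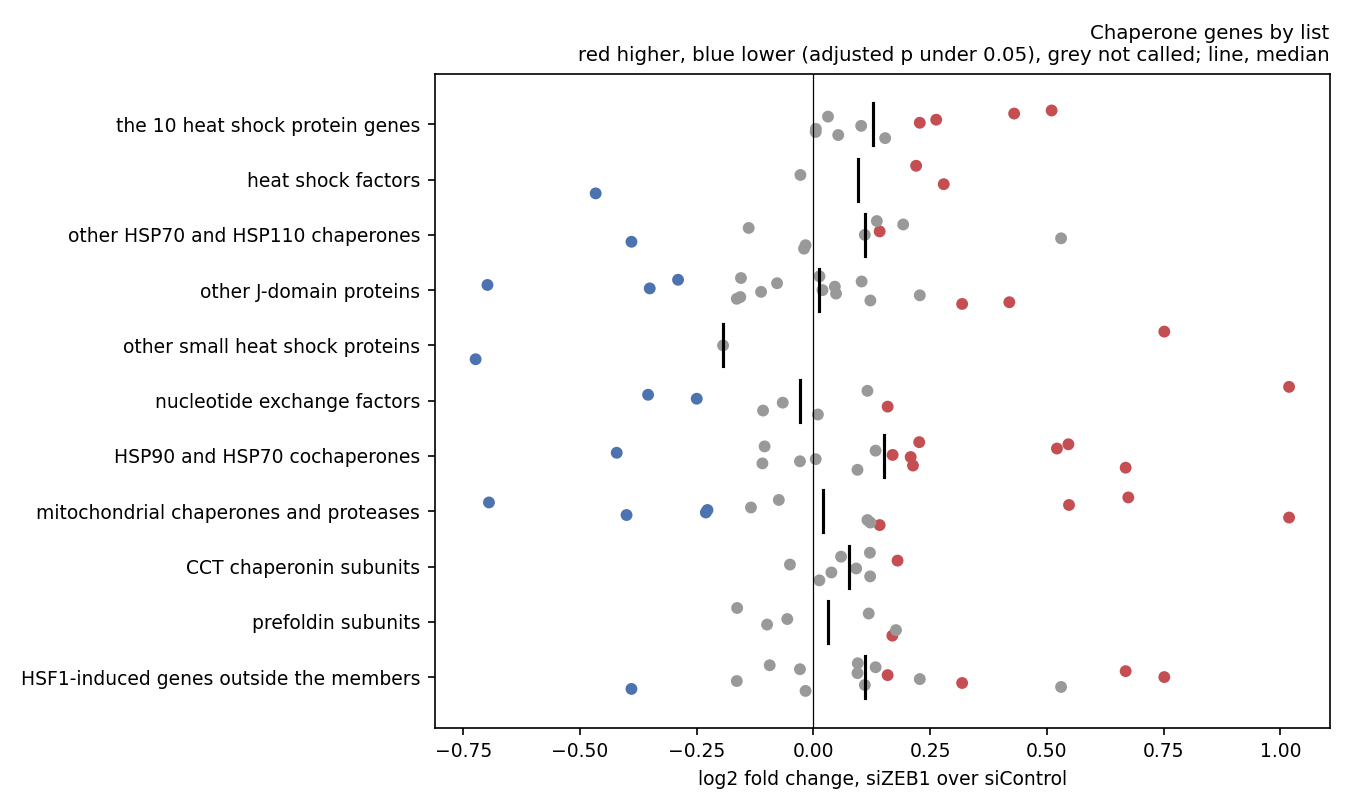
Log2 fold change, siZEB1 over siControl, of each tested gene in the 10 chaperone lists and of the 10 heat shock protein genes; red points were called higher and blue points lower at an adjusted p under 0.05, grey points were not called, and black lines are medians. The 10 genes lie between 0.0047 and 0.51, while GRPEL2 reaches 1.02 and HSPB8 -0.72; some genes stand in more than 1 list.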

How the data were processed

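Total RNA of 6 SW480 cultures, 3 per group, was sequenced on an Illumina instrument. The authors deposited raw counts of reads per gene, 1 table per culture; the submitters' processing notes name Trimmomatic, HISAT2, SAMtools, featureCounts and the build hg38, and versions, annotation and the strand and multiple-match settings are not given in the sources used here. Counts between 19040636 and 22357633 per culture set the precision, and reads are not unique molecules. The counts were filtered with filterByExpr (14996 of 32029 genes kept), scaled by TMM and tested with edgeR 4.0.16 in R 4.3.3 (quasi-likelihood, two-sided, no covariates), with Benjamini-Hochberg adjustment over all genes kept. Groups came from the sample titles. Within each group, every pair of cultures varied more than sampling alone would give, with a chi-square of 2.26 to 9.53 per degree of freedom. That value cannot tell separate cultures from repeated libraries of 1 culture. Each was counted as a separate sample because the study calls them biological replicates. The replicate numbers were not treated as pairs in the main fit. CPM used the TMM sizes; lengths, positions and 75-base stretches came from GENCODE 29 on GRCh38, and promoter windows from RefSeq (GRCh38.p14). Names were taken by rule: all 10 genes, ZEB1, HSF1, HSF2, up to 4 called genes with the largest absolute log2 fold change per list, and pseudogenes with a mean of at least 1 CPM, up to 3 per parent; genes outside it are named as such, and HSBP1, in the list of heat shock factors, follows from it. The genes and lists were chosen with earlier results of these data known. HSPA14 was left out because 2 features share its name. Alternatives were DESeq2 1.42.0, median-of-ratios factors, library totals, other filters, pseudogene counts added, a replicate block, the fold rule and leaving out each culture. The scripts were checked on simulated data. There, 50% of changes of 1.25-fold were called, or 59.5% for genes at 5 CPM or more. For changes of 1.5-fold it was 78% and 90.7%, so a small change could go uncalled. Only 50 of 14692 genes were changed at each fold there, while 40.2% of genes tested were called in the data. The rates in the data may therefore differ from the simulated ones.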

Additional observations from a re-analysis of the deposited data

How the results depend on the processing

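HSP90AA1, HSP90AB1 and HSPD1 were called higher in each alternative that kept the adjusted p, namely DESeq2, median-of-ratios factors, library totals, no filter, at least 10 counts in every culture, added pseudogene counts, the replicate block and each left-out culture. The number of the 10 genes called higher ranged from 3 to 5 as single cultures were left out, moved by HSPE1 and HSPA1A, and was 0 with a fold above 1.5 and an unadjusted p under 0.05. That rule also gave 4 higher and 3 lower among the other chaperones (19 and 13 by the adjusted p) and 1081 higher and 1402 lower among all genes (2849 and 3186), since it asks for a larger change. The other chaperones called higher ranged from 11 to 20 as cultures were left out, with 11 both without siControl 2 and without siZEB1 2. In the same fits the count over all genes ranged from 2305 to 2928. It was 2305 without siControl 2 and 2396 without siZEB1 2, against 2849 in the main fit, and the cause was not tested. Deviations of same-numbered cultures from their group means correlated at -0.052, -0.088 and -0.20, and no culture correlated best with the culture of its own number. With 3 cultures per group this cannot show whether same-numbered cultures were prepared together. With the replicate block 4 of the 10 genes and 11 of the other chaperones were called higher, beside 2289 of all genes. The direction of 3 genes that were never called was not fixed: HSPA8 was -0.0038 with library totals and between -0.012 and 0.032 without single cultures, HSPH1 was -0.0030 and between -0.041 and 0.028, and HSPB1 lay between -0.027 and 0.12; the cause was not tested. HSPA9, BAG3, VBP1 and CRYAB lost their call in 6, 7, 6 and 4 of 12 alternatives, HSBP1 in 3, BAG5 in 2, and HSF2 and CCT6A in 1 each. HSPE1 had the fewest counts of the 10 genes, 119 to 222, and its coefficient of variation was 27.2% in siControl and 12.9% in siZEB1.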
